A study of Mus musculus with 27 samples.

Results

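The uroplakin genes *Upk1a*, *Upk1b*, *Upk2*, *Upk3a* and *Upk3b* were read in the developing, mutant and adult mouse esophagus. They are 5 of 28427 genes on the arrays and were measured by 6 of 41174 probes, 2 of them for *Upk1a* and 1 for each other gene. The genes were chosen by their measured log2 ratios across the 9 groups, so their own levels and differences are given as a description and without p-values. RNA came from whole esophagi of C57BL/6J wild-type mice of 4 ages (E11.5, E15.5, P0 or P7, where E is the embryonic and P the postnatal day), and from whole esophagi of *Nrf2*-/-, *Keap1*-/- and *Nrf2*-/-*Keap1*-/- mice on that background at P7. RNA of the esophageal epithelium came from C57BL/6J wild-type and *Nrf2*-/- adults at 8 weeks. Each group held 3 arrays, 27 in all. The null alleles were carried by the whole animal, and each RNA was taken from an individual esophagus. Age and dissection changed together between P7 and the adult, and their parts in any difference cannot be told apart. On every array the esophageal RNA carried Cy5 and Universal Mouse Reference RNA carried Cy3, and a level below is the log2 ratio of Cy5 to Cy3 after background correction and loess. After loess, a level of 0 is the typical ratio of spots of that brightness on the array and not an equal signal in both channels. Levels of different genes are not comparable.

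Uroplakins are the membrane proteins that pack into the rigid plaques on the apical surface of the bladder's umbrella cells, where they form a permeability barrier. *Upk1a* and *Upk1b* encode tetraspanins, and *Upk2*, *Upk3a* and *Upk3b* encode single-pass partners. The *Upk1a* protein leaves the endoplasmic reticulum with the *Upk2* protein, and the *Upk1b* protein with that of *Upk3a* or *Upk3b*. The embryonic esophagus is lined by a simple columnar epithelium with ciliated cells that is later replaced by a stratified squamous one. *Nrf2*, encoded by *Nfe2l2*, is a transcription factor of antioxidant genes, and *Keap1* is the adaptor that marks it for degradation.

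In the GRCm38.p6 assembly of RefSeq, *Upk1a* lies on chromosome 7 from 30603092 to 30612734, *Upk1b* on chromosome 16 from 38773182 to 38800203, and *Upk2* on chromosome 9 from 44452715 to 44454767. *Upk3a* lies on chromosome 15 from 85017141 to 85022560 and *Upk3b* on chromosome 5 from 136038496 to 136044993. A neighbour on chromosome 5, the *Upk3b*-like gene *Upk3bl*, has its own probe and was not counted as a uroplakin. Promoter sequences were held for 3 of the 5 genes. The 250 bases before the start of *Upk3a* and of *Upk3b* are shown because these partners of *Upk1b* followed different courses in the arrays. They are written 5′ to 3′ in gene orientation from chr15:85016891-85017140 and chr5:136038246-136038495, both on the plus strand, with motif matches in capitals.
Upk3a: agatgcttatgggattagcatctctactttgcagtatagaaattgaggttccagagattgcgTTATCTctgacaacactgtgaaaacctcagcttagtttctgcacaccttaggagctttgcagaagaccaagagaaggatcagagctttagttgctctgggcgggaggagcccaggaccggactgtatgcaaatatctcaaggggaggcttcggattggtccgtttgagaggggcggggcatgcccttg
Upk3b: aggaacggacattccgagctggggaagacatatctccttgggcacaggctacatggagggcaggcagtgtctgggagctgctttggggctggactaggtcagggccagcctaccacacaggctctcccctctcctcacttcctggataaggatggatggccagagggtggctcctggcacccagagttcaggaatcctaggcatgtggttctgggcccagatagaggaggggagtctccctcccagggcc
The windows were searched on both strands for the core of the antioxidant response element bound by Nrf2 (TGACNNNGC), the AP-1 site (TGANTCA), the GATA site (AGATAA) and the TATA box (TATAAA). The capitals in *Upk3a* are 1 GATA match on the reverse strand, 188 to 183 bases before the start. The windows of *Upk3b* and *Upk1a* held no match. Of 32851 promoters of the table, 9.99% held the GATA letters in the same window, 10.2% those of the antioxidant response element, 6.75% those of AP-1 and 12.4% those of the TATA box.

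Median Cy5 intensity ranged from 81.8 to 226 over the 27 arrays, and 58.9% to 69.3% of Cy5 spots were well above background. The 3 *Keap1*-/- arrays were alone on their slide and in their scan, so genotype and scan cannot be told apart for them. Among adult arrays, 2 of wild type were scanned with the wild-type P7 arrays and 1 with 2 *Nrf2*-/- arrays. Adult *Nrf2*-/- replicate 3 was in a scan of its own. Genotype and scan in the adult can be told apart only in part. In the genotype check, *Nfe2l2* was between -4.14 and -3.82 in the *Nrf2*-/- and *Nrf2*-/-*Keap1*-/- arrays at P7 and between -0.73 and 0.00 in the wild-type and *Keap1*-/- arrays of that age. A pair of embryonic arrays went against their labels. Over all genes, r between E11.5 replicate 3 and the other E15.5 arrays, replicates 2 and 3, was 0.98, while r to its own group was 0.83 and 0.77. For E15.5 replicate 1, r to replicates 1 and 2 of E11.5 was 0.96 and 0.93, and r to its own group 0.80 and 0.81. Both kept their labels, and embryonic calls and the main uroplakin differences are given with and without them.

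*Upk1b*, the tetraspanin partner of *Upk3a* and *Upk3b*, was the uroplakin with the widest range of levels. It read 0.16, 0.87 and 2.89 at E11.5 and 0.66, 3.20 and 3.23 at E15.5. At P0 it read 6.95, 6.79 and 7.02, and at P7 6.15, 7.30 and 6.69. Every array at P0 and P7 lay above every embryonic array. In *Nrf2*-/- esophagi at P7 the levels were 6.75, 6.71 and 6.55, and in *Nrf2*-/-*Keap1*-/- esophagi 6.85, 6.25 and 6.42, both within the range of wild type. In *Keap1*-/- esophagi they were 1.23, 0.82 and 0.42, below all 9 other arrays of that age and within the range of E11.5. In the adult epithelium the levels were -2.004, -1.30 and -2.53 in wild type and -2.23, -2.63 and -2.19 in *Nrf2*-/- mice, and the probe was not well above background on any of these 6 arrays.

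The *Upk1b* difference from E15.5 to P0 was 4.56 ± 0.76 (log2, SE of the fit), a 23.5-fold rise in the ratio, and 3.71 ± 0.31 without the E11.5 and E15.5 arrays that went against their labels. From P0 to P7 it was -0.21 ± 0.76. The *Keap1*-/- level was lower than wild type by -5.89 ± 0.28, which is 59.3-fold, and lower than the double null by -5.68 ± 0.28. On the Cy5 channel the adult epithelium was at least 363-fold lower than P7. For this, adult signals below the lowest value well above background on their array were set to that value. The measured ratio difference was -8.66, and between -12.04 and -7.27 under the alternatives. The 2 adult arrays scanned together with the P7 arrays gave a measured *Upk1b* difference of -8.37, with the probe not well above background on either adult array. Unnormalized Cy5 intensity of the *Upk1b* probe went from 44.3 to 53.5 in adult wild type to 28370 on the brightest P0 array, while its Cy3 intensity stayed between 277 and 670.

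**Figure D1:**
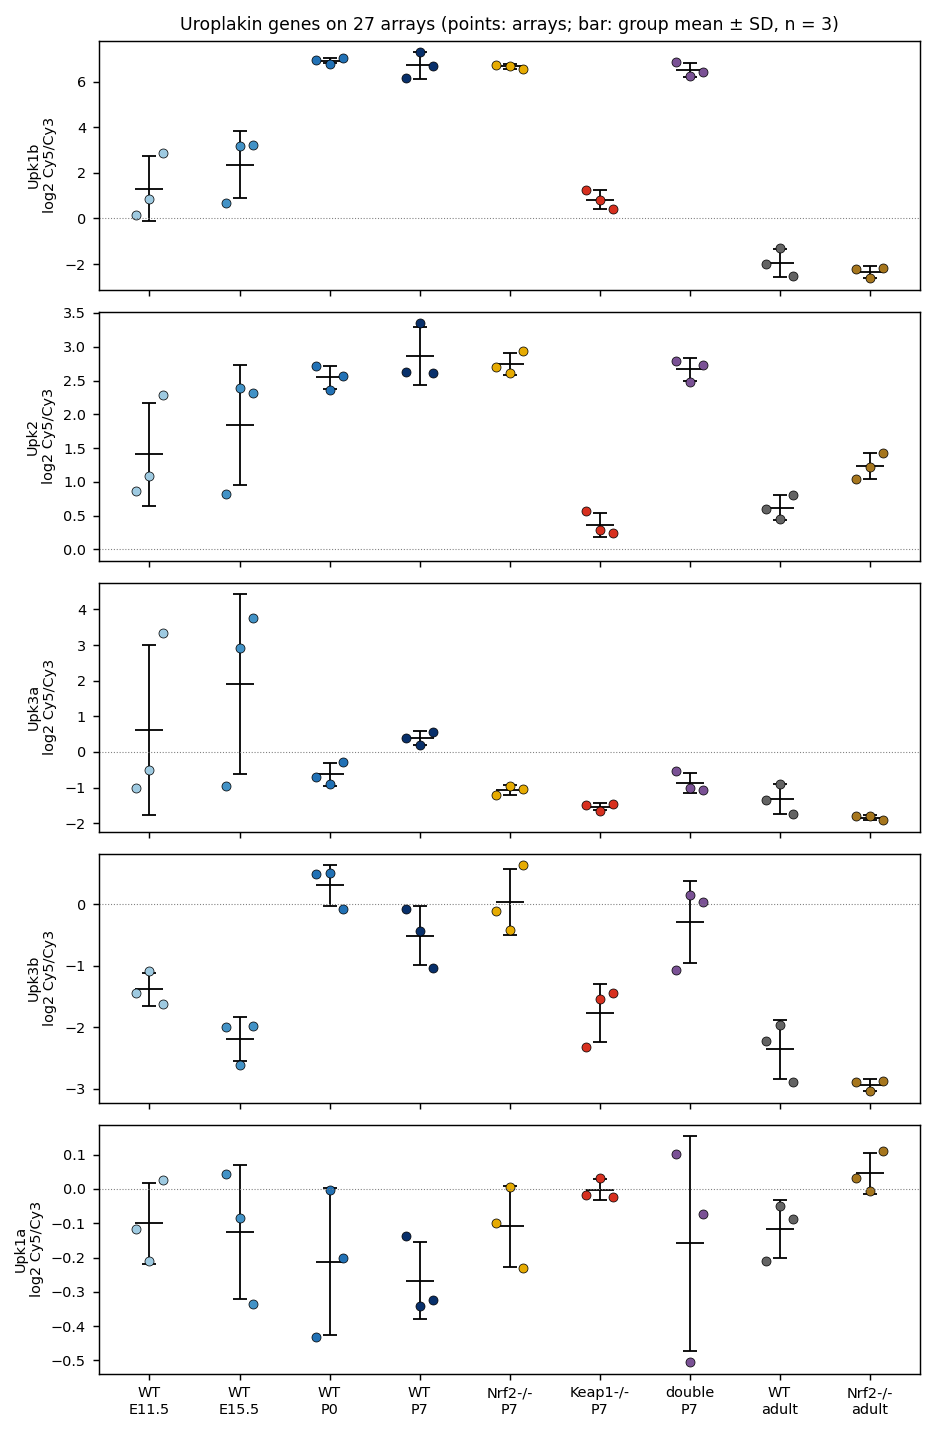
The level of each uroplakin (log2 Cy5/Cy3, vertical axis) in the 9 groups, with 1 point per array and a bar for the group mean ± SD (n = 3), where "double" is *Nrf2*-/-*Keap1*-/-. *Upk1b* lies between 6.15 and 7.30 on all 12 arrays of P0 and P7 other than *Keap1*-/-, whose arrays lie between 0.42 and 1.23, and *Upk1a* stays between -0.51 and 0.11 throughout.

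*Upk1a*, the tetraspanin that pairs with *Upk2*, stayed close to a level of 0 in every group. Group means ran from -0.27 ± 0.11 (SD, n = 3) in wild type at P7 to 0.05 ± 0.06 in the adult *Nrf2*-/- epithelium, and neighbouring groups in that order all overlapped. Over the 27 arrays the level went from -0.51 to 0.11. The Cy5 intensity of its brighter probe was between 46.3 and 124.5, and on no array of wild type or *Keap1*-/- at P7 was it well above background. The second probe was not well above background on any array, so a change of *Upk1a* below that limit could not be measured. All *Keap1*-/- arrays lay above all wild-type arrays of P7 (0.27 ± 0.14 on the log2 scale), in the dim range of both probes.

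*Upk2*, the partner of *Upk1a*, was higher at P7 than at E11.5 in the whole esophagus and was low in *Keap1*-/- mice and in the adult. Its levels were 0.87, 1.08 and 2.28 at E11.5, 0.82, 2.39 and 2.32 at E15.5, 2.71, 2.37 and 2.56 at P0 and 2.62, 3.35 and 2.61 at P7. The arrays of P7 were above all of E11.5, while E15.5, P0 and P7 overlapped with their neighbours in age. The *Upk2* difference from E15.5 to P0 was 0.705 ± 0.45, and 0.19 ± 0.22 without the embryonic arrays against their labels. From P0 to P7 it was 0.31 ± 0.45, and -0.27 on the Cy5 channel alone. *Nrf2*-/- esophagi read 2.70, 2.62 and 2.93 and the double null 2.79, 2.47 and 2.73, both overlapping wild type. *Keap1*-/- esophagi read 0.57, 0.29 and 0.24, below all other arrays of P7. The adult epithelium read 0.59, 0.45 and 0.81 in wild type and 1.05, 1.22 and 1.43 in *Nrf2*-/- mice, and these groups did not overlap. The *Upk2* difference in *Keap1*-/- esophagi was -2.50 ± 0.19 against wild type and -2.30 ± 0.19 against the double null, and from P7 to the adult it was -2.24 ± 0.22. In *Keap1*-/- esophagi the *Upk2* probe was well above background on 1 of 3 arrays in Cy5 and on 0 of 3 in Cy3. In adults, *Nrf2*-/- epithelium was higher by 0.61 ± 0.15. Within the scan that held both genotypes, with 2 *Nrf2*-/- arrays and 1 of wild type, it was higher by 0.32.

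The reference signal of the *Upk2* probe was not constant. Its Cy3 intensity was between 34.6 and 133 on the arrays with low Cy5 signal and between 757 and 1634 on those with high Cy5 signal, although the Cy3 RNA was the same reference throughout. After scaling between arrays the Cy3 signal of this probe ranged over 3.68 log2 units, a range reached by 0.861% of 32509 probes, whose median was 0.66. On the Cy5 channel alone the *Upk2* difference in *Keap1*-/- esophagi was -5.18 and that from P7 to the adult -4.95, each more than the ratio gave. With the processed signals or the deposited ratios the same *Upk2* differences were -0.92 ± 0.38 and -0.88 ± 0.32 and were not called. With median centring in place of loess they were -1.18 ± 0.17 and -0.81 ± 0.18 and were called. The Cy3 signal of the *Upk3a* probe ranged over 1.21 units (11.6% of probes reached that), and those of *Upk1b* and *Upk3b* over 0.71 and 0.59. What moved the Cy3 signal of *Upk2* was not tested.

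**Figure D2:**
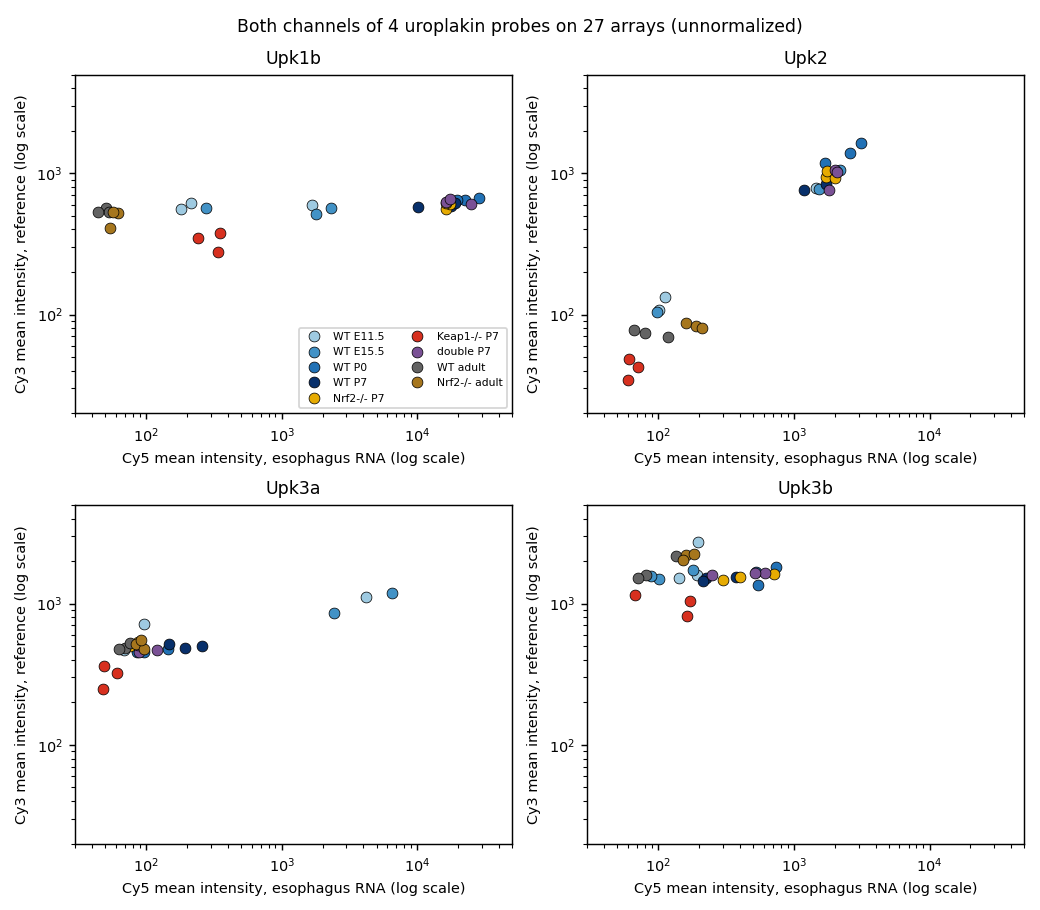
Cy3 intensity of the reference (vertical, log scale) against Cy5 intensity of the esophageal RNA (horizontal, log scale) for the probes of 4 uroplakins, unnormalized, with 1 point per array coloured by group. The *Upk2* points climb from a Cy3 of 34.6 to 1634 with Cy5, whereas the *Upk1b* points stay between 277 and 670.

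*Upk3a*, the partner of *Upk1b* in the bladder, did not follow *Upk1b*. It read -0.997, -0.52 and 3.35 at E11.5 and -0.96, 2.92 and 3.77 at E15.5, then -0.71, -0.90 and -0.27 at P0 and 0.40, 0.19 and 0.57 at P7. The highest levels stood on E11.5 replicate 3 and E15.5 replicates 2 and 3, the arrays that correlated with one another, with Cy5 intensities of 4191, 2433 and 6550. With the arrays against their labels left out, *Upk3a* was higher at E15.5 than at E11.5 by 4.10 ± 0.30, lower at P0 than at E15.5 by -3.98 ± 0.28, and higher at P7 than at P0 by 1.02 ± 0.25. With them, the same differences were 1.30 ± 1.24, -2.54 ± 1.24 and 1.02 ± 1.24. All 3 null genotypes of P7 lay below wild type. *Nrf2*-/- esophagi read -1.21, -0.94 and -1.04, the double null -0.54, -0.998 and -1.07, and *Keap1*-/- esophagi -1.49, -1.65 and -1.47. The *Nrf2*-/- difference was -1.45 ± 0.15 and that of the double null -1.26 ± 0.15. The *Keap1*-/- arrays were not well above background and measured 3.58-fold below wild type in the Cy5 channel. Their ratio difference was -1.93 ± 0.15, and between -4.61 and -1.47 under the alternatives. In the adult epithelium *Upk3a* read -1.34, -0.88 and -1.74 in wild type and -1.81, -1.81 and -1.92 in *Nrf2*-/- mice, well above background on 1 and 2 of 3 arrays.

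*Foxj1*, which drives motile cilia, was high on the same 3 embryonic arrays as *Upk3a*, at 4.49, 4.50 and 4.19. It was between 3.17 and 3.65 at P0, where *Upk3a* was low, and between -0.17 and 0.06 in wild type at P7. Of the 6 airway markers, the mean level ran from -0.14 to 2.11 at E11.5, from -0.13 to 2.38 at E15.5 and from 2.34 to 3.47 at P0. It still ran from 1.14 to 1.70 in wild type at P7 and from 1.78 to 1.86 in the adult wild type. There *Cyp2f2* of this list was between 5.93 and 6.13 and *Scgb1a1* between 3.51 and 4.16, while *Foxj1* was not well above background. The mean of this list therefore did not follow *Foxj1*. *Nkx2-1*, which defines lung and tracheal epithelium, was above background on 0 of 3 arrays at E11.5 and 1 of 3 at E15.5 and P0. The part of such cells in the levels of *Upk3a* was not tested.

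*Upk3b*, which also partners *Upk1b* and is known as a marker of mesothelium, rose around birth. It read -1.45, -1.09 and -1.62 at E11.5, -1.99, -2.61 and -1.98 at E15.5, 0.50, 0.51 and -0.08 at P0, and -0.08, -0.43 and -1.03 at P7. All wild-type arrays of P0 and P7 lay above all embryonic arrays, and E15.5 lay below E11.5. *Nrf2*-/- esophagi read -0.10, -0.41 and 0.64 and the double null -1.06, 0.16 and 0.04, both overlapping wild type. *Keap1*-/- esophagi read -2.32, -1.54 and -1.45. The adult epithelium read -2.23, -1.96 and -2.90 in wild type and -2.89, -3.05 and -2.88 in *Nrf2*-/- mice. The *Upk3b* difference from E15.5 to P0 was 2.50 ± 0.28, a 5.67-fold rise, that of *Keap1*-/- esophagi -1.26 ± 0.39, and that from P7 to the adult -1.85 ± 0.31. Without the arrays against their labels, the difference from E15.5 to P0 was 2.605 ± 0.31. That from E11.5 to E15.5 was -0.81 ± 0.28 with them and -1.03 ± 0.34 without them.

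Markers of mesothelium were read beside *Upk3b*. The mean level of the 6 markers ran from -1.67 to -0.99 over both embryonic ages, from -0.48 to 0.15 at P0, from -0.92 to -0.50 in wild type at P7, from -1.60 to -1.29 in *Keap1*-/- esophagi and from -2.06 to -1.76 in the adult wild type. *Msln*, mesothelin, was between 0.11 and 0.44 at P0, between -1.09 and 0.15 in wild type at P7, and between -4.31 and -3.50 in *Keap1*-/- esophagi, while *Bnc1* was between -2.66 and -1.95 in wild type and between -2.19 and -1.83 in *Keap1*-/- esophagi. From E15.5 to P0, where 11.2% of all genes were called higher, 1 of 6 mesothelial markers was, also without the arrays against their labels. In *Keap1*-/- esophagi 2 of 6 were called lower, where 18.0% of all genes were called lower and 33.3% in either direction. There the list's median difference was -0.33 and that of *Msln* -3.31 ± 0.32. From P7 to the adult, 4 of 5 were called lower and 1 (*Bnc1*) higher, where 22.9% of all genes were called lower and 42.8% in either direction. *Lrrn4* and *Muc16* were not well above background in the adult wild type. From P7 to the adult wild type, the mean of the muscle markers went from between 4.37 and 4.88 to between 1.67 and 2.38, and that of the mesenchymal markers from between 0.80 and 1.15 to between -0.97 and -0.67. The mesenchymal mean was also lower in *Keap1*-/- esophagi, between -0.07 and 0.24. The part of these tissues in the uroplakin levels was not tested, and in bulk RNA fewer cells of a type cannot be told apart from less RNA per cell. The 6 squamous markers were well above background on all arrays from P0 on, other than 1 marker in *Keap1*-/- esophagi, whereas *Ivl* was not at E11.5 or E15.5.

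A gene was called when limma's adjusted p over all tested genes was 0.05 or lower. From E11.5 to E15.5, 0 of 5 uroplakins and 0% of 19874 genes were called (327 at an unadjusted p of 0.05). Without the arrays against their labels, *Upk1b* (2.70 ± 0.34), *Upk2* (1.38 ± 0.24) and *Upk3a* were called higher, among 2694 genes. From E15.5 to P0, 2 of 5 uroplakins, *Upk1b* and *Upk3b*, were called higher, where 11.2% of all genes were called higher and 19.7% in either direction. Without the arrays against their labels, 3 were called, *Upk3a* as lower. From P0 to P7, 0 of 5 were called, against 2.42% of all genes, or 1 (*Upk3a*) without those arrays. From E11.5 to P7, *Upk1b* (5.41 ± 0.76), *Upk2* (1.45 ± 0.45) and *Upk3b* (0.87 ± 0.28) were called higher, where 16.8% of all genes were called higher and 30.1% in either direction. The calls of *Upk2* and *Upk3b* were lost when E11.5 replicate 1, P7 replicate 1 or P7 replicate 2 was left out. Without the arrays against their labels, *Upk1b* (6.20 ± 0.31), *Upk2* (1.89 ± 0.22) and *Upk3a* (1.15 ± 0.28) were called higher and *Upk3b* (0.76 ± 0.31) was not. With all arrays, that *Upk3a* difference was -0.22. Since the ratios chose the genes, nothing is read from these shares.

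At P7, 4 of 5 uroplakins were called lower in *Keap1*-/- than in wild-type esophagi, where 18.0% of 19211 genes were called lower and 33.3% in either direction. Against the double null, the same 4 genes were called lower, where 18.3% of genes were called lower and 33.3% in either direction. The *Upk2* calls were lost with the processed signals and the deposited ratios, and *Upk2* was not tested with outlier-marked spots left out. The *Upk3b* call against wild type was lost with median centring (-0.88 ± 0.39) and without wild-type replicate 1 or 2 or *Keap1*-/- replicate 1 or 2. Against the double null it was lost without double-null replicate 2 or 3. The *Upk3a* calls were lost with all 27 arrays in 1 fit. Each of these settings left 3 uroplakins called. In *Nrf2*-/- esophagi 1 of 5, *Upk3a*, was called lower, where 0.0104% of genes (2 genes) were called lower and 0.0156% in either direction. In the double null 1 of 5, again *Upk3a*, was called lower, where 0.135% of genes were called lower and 0.458% in either direction. The calls of *Upk3a* in these comparisons were lost with the processed signals of Feature Extraction, where the *Nrf2*-/- difference was -2.29 ± 0.47, and without wild-type replicate 1. The *Nrf2*-/- call was also lost without *Nrf2*-/- replicate 1 or 3, and that of the double null without its replicate 3. The difference between *Keap1* loss with and without *Nrf2*, an interaction added after the data were seen, was called lower for *Upk1b*, *Upk2* and *Upk3a*, where 7.96% of genes were called lower and 15.1% in either direction.

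**Figure D3:**
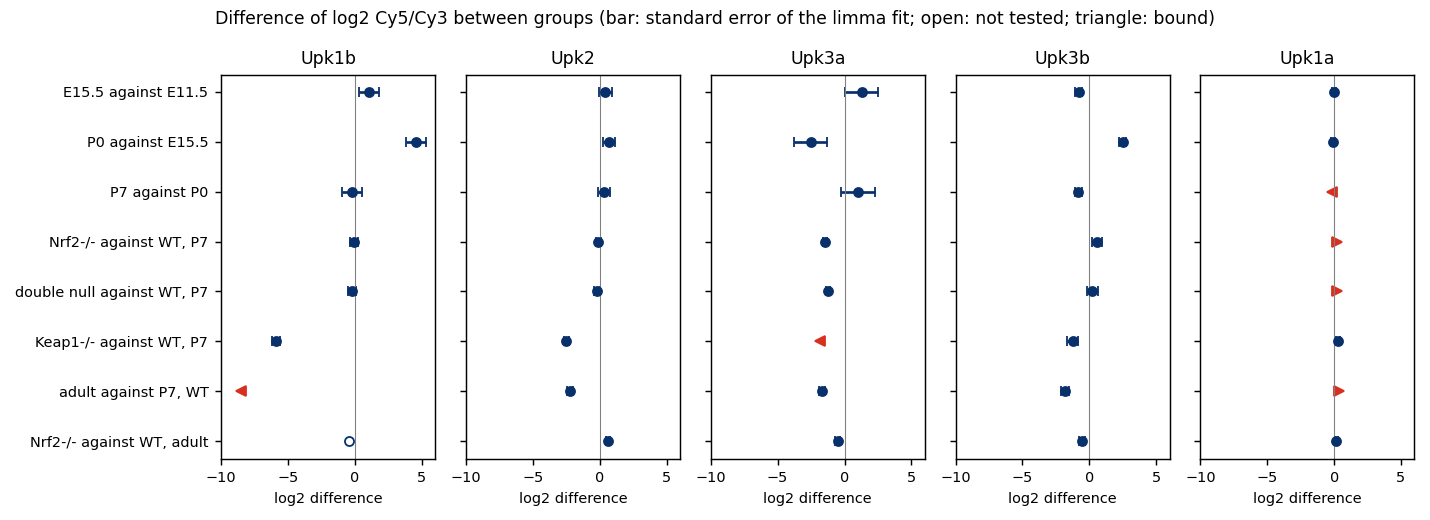
Differences in log2 Cy5/Cy3 (horizontal axis) of the 5 uroplakins in 8 comparisons, with bars for the standard error of the limma fit. An open point marks a gene below the filter on dim probes. A triangle (bound) marks the Cy5 difference where the lower group was not well above background, with signals below that limit set to it. The rows of *Keap1*-/- against wild type and of adult against P7 lie left of 0 for *Upk1b*, *Upk2*, *Upk3a* and *Upk3b*. *Upk1b* is at -5.89 in *Keap1*-/- and at least 363-fold lower on the Cy5 channel in the adult. In *Nrf2*-/- against wild-type adults, *Upk2* lies right of 0 at 0.61.

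From P7 to the adult epithelium, 4 of 5 uroplakins were called lower, where 22.9% of 18148 genes were called lower and 42.8% in either direction. In the adult, 0 of 4 tested uroplakins were called between *Nrf2*-/- and wild type, against 0.445% of 18190 genes and 3059 genes at an unadjusted p of 0.05. *Upk3a* and *Upk3b* differed by -0.52 ± 0.21 and -0.58 ± 0.23, and by -0.06 and -0.07 within the scan that held both genotypes, with 1 wild-type array. *Upk1b* did not pass the filter on dim probes between the adult genotypes. Without any 1 wild-type P7 array, *Upk1b* did not pass it from P7 to the adult either, and 3 were called. The *Upk2* call from P7 to the adult was lost with the processed signals and the deposited ratios. With each spot's own local background subtracted, *Upk3a* and *Upk3b* were no longer called from P7 to the adult, and *Upk2*, *Upk3a* and *Upk3b* were called between the adult genotypes, among 1688 genes. The *Nrf2* effect in the adult against that at P7 was called for 0 of 5 uroplakins and 0.0972% of 19541 genes (2192 at an unadjusted p of 0.05).

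The keratins of the urothelium were read next, a list chosen like the other lists with earlier results known. Of 7 tested in *Keap1*-/- esophagi, 4 were called lower and 0 higher, with a median difference of -2.84 against -0.02 over all genes, of which 18.0% were called lower and 33.3% in either direction. *Krt5* and *Krt13*, keratins of squamous epithelium, were not called. Against the double null, 4 were called lower and 1, *Krt5*, higher. The log2 difference was -6.37 ± 0.13 for *Krt19* (adjusted p = 4.9e-10), -4.92 ± 0.16 for *Krt7* (adjusted p = 1.2e-08) and -4.11 ± 0.27 for *Krt8* (adjusted p = 2.2e-06), all 3 keratins of simple epithelia. The 3 *Krt19* levels were between -4.10 and -3.69 in *Keap1*-/- esophagi, between 2.43 and 2.60 in wild type and between 2.89 and 3.095 in the double null.

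Markers of glandular stomach stood high on some arrays of P7. *Gkn2*, a gastrokine, read 6.53, 5.79 and -0.29 in wild type and 4.52, -0.16 and 0.41 in *Nrf2*-/- esophagi. It read -0.15, -0.19 and -0.17 in *Keap1*-/- esophagi and -0.02, 5.84 and -0.41 in the double null. The mean of the 6 stomach markers ran from -0.08 to 3.66 in wild type and from -0.055 to 1.82 in *Nrf2*-/- esophagi. It ran from -0.07 to 0.01 in *Keap1*-/- esophagi and from -0.02 to 3.30 in the double null. In *Keap1*-/- esophagi *Gkn1*, *Gkn2* and *Tff2* were not well above background on any array, and of 5 tested stomach markers 0 were called, with a median difference of -1.78. *Krt20* followed them, at 2.19, -0.15 and -1.87 in wild type. On wild-type replicate 3, where *Gkn2* was -0.29, *Upk1b* was 6.69 and *Krt19* 2.43. *Keap1*-/- esophagi were also set against that array alone, a choice made after the data were seen. The differences were -5.87 for *Upk1b*, -2.24 for *Upk2*, -2.11 for *Upk3a*, -0.74 for *Upk3b* and 0.32 for *Upk1a*. For the keratins they were -6.26 (*Krt19*), -4.66 (*Krt7*), -3.54 (*Krt8*), -1.57 (*Krt18*), -0.92 (*Krt20*), 0.57 (*Krt5*) and 0.91 (*Krt13*). *Mal* differed by -4.94, *Elf3* by -2.395 and *Foxa1* by -1.30, while *Vps33a* and *Pparg* were higher by 1.07 and 2.18. A single array has no spread of its own, and the uroplakins were chosen on these ratios, so no call is read from these differences. The part of stomach tissue in other differences was not tested.

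Between E15.5 and P0, where 19.7% of all genes were called, 2 of 7 keratins were called higher, *Krt7* by 2.15 ± 0.31 (adjusted p = 0.0013) and *Krt20*, a marker of umbrella cells, by 2.57 ± 0.79 (adjusted p = 0.044), while *Krt19* differed by 2.82 ± 0.98 (adjusted p = 0.069). Without the arrays against their labels, *Krt7* and *Krt19* (1.59 ± 0.13, adjusted p = 9.3e-05) were called and *Krt20* was not (adjusted p = 0.066). From P7 to the adult, where 42.8% of all genes were called, 4 were called lower, led by *Krt19* at -6.39 ± 0.13 (adjusted p = 9.9e-07), *Krt7* at -5.82 ± 0.22 (adjusted p = 6.2e-06) and *Krt8* at -4.77 ± 0.27 (adjusted p = 2.8e-05). The 1 called higher was *Krt13*, a keratin of squamous epithelium, by 0.75 ± 0.23 (adjusted p = 0.032). Between *Nrf2*-/- and wild type at P7, 0 of 7 were called.

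Of the 7 genes for the traffic of uroplakin vesicles, 3 were called lower and 1 higher in *Keap1*-/- esophagi, where 33.3% of all genes were called, with a median difference of 0.18. *Mal*, a raft protein of apical transport, differed by -5.18 ± 0.14 (adjusted p = 2.6e-09), from between 5.33 and 5.92 in wild type to between 0.33 and 0.43. *Snx31*, a sorting nexin of umbrella cells, differed by -0.48 ± 0.13 (adjusted p = 0.018), and was not well above background in either group. *Vps33a*, a subunit of vesicle tethering complexes, rose by 1.03 ± 0.09 (adjusted p = 1.4e-05). Around birth, between E15.5 and P0, 5 of the 7 were called higher and 0 lower (19.7% of all genes were called), led by *Rab11a*, a GTPase of recycling endosomes, at 1.32 ± 0.16 (adjusted p = 0.00043), *Vps33a* at 0.46 ± 0.10 (adjusted p = 0.0087) and *Snx31* at 0.67 ± 0.16 (adjusted p = 0.017). With the embryonic arrays against their labels left out, 6 of 7 were called higher and 0 lower. From P7 to the adult, against 42.8% of all genes, 5 of 6 were called higher, among them *Rab11a* at 1.28 ± 0.18 (adjusted p = 0.0013) and *Rab27b*, a GTPase of secretory vesicles, at 0.90 ± 0.16 (adjusted p = 0.0033), and *Mal* was called lower at -5.55 ± 0.17 (adjusted p = 4.1e-06). In the adult, *Mal* was the 1 gene of the list called between genotypes, higher in *Nrf2*-/- epithelium by 1.98 ± 0.26 (adjusted p = 0.026).

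Transcription factors of the urothelium did not move in 1 direction. Of 8 tested in *Keap1*-/- esophagi, 2 were called higher and 2 lower, against 33.3% of all genes. *Elf3*, an epithelial ETS factor, differed by -2.58 ± 0.22 (adjusted p = 1.5e-05) and *Foxa1*, a forkhead factor, by -1.36 ± 0.13 (adjusted p = 4.1e-05). *Pparg*, a nuclear receptor that drives urothelial differentiation, rose by 1.67 ± 0.28 (adjusted p = 0.0014). Between E15.5 and P0, *Elf3* and *Ehf*, another ETS factor, were called higher, by 2.88 ± 0.44 (adjusted p = 0.0018) and 2.31 ± 0.68 (adjusted p = 0.036), while *Foxa1* differed by 0.39 ± 0.13 (adjusted p = 0.053). Without the arrays against their labels, 4 of 8 were called higher, *Foxa1* and *Klf5* among them, and 0 lower. From P7 to the adult, 4 were called higher, such as *Trp63*, which marks basal cells (0.66 ± 0.13, adjusted p = 0.005) and *Rxra*, the partner receptor of *Pparg* (0.74 ± 0.14, adjusted p = 0.005). *Elf3* was the 1 called lower, by -1.74 ± 0.21 (adjusted p = 0.00063). In the adult, *Pparg* was lower in *Nrf2*-/- epithelium by -1.84 ± 0.15 (adjusted p = 0.0032).

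The other tetraspanins are relatives of *Upk1a* and *Upk1b*. Of 26 tested in *Keap1*-/- esophagi, 9 were called lower and 2 higher, with a median difference of -0.25, where 18.0% of all genes were called lower and 33.3% in either direction. *Tspan1* differed by -5.28 ± 0.35 (adjusted p = 2.2e-06), from between 4.28 and 5.99 in wild type to between -0.26 and -0.06, and *Tspan6* by -2.24 ± 0.22 (adjusted p = 3.9e-05). *Tspan17* rose by 3.38 ± 0.11 (adjusted p = 9.5e-09), from between -0.82 and -0.68 to between 2.50 and 2.74. Between E15.5 and P0, 7 of 26 were called higher and 0 lower (19.7% of all genes were called), led by *Tspan8* at 3.22 ± 0.34 (adjusted p = 0.0002), *Tspan6* at 1.29 ± 0.26 (adjusted p = 0.0069) and *Cd82* at 1.76 ± 0.41 (adjusted p = 0.013). With the embryonic arrays against their labels left out, 5 were called higher and 1 lower. From P7 to the adult, where 22.9% of all genes were called lower and 42.8% in either direction, 13 were called lower and 1 higher, and *Tspan12* (-5.35 ± 0.36, adjusted p = 5.3e-05), *Tspan2* (-2.16 ± 0.18, adjusted p = 0.00013) and *Tspan1* (-4.26 ± 0.38, adjusted p = 0.00019) had the lowest adjusted p. *Upk3bl* differed by -1.003 ± 0.20 in *Keap1*-/- esophagi (adjusted p = 0.0031) and by -1.16 ± 0.22 from P7 to the adult (adjusted p = 0.005). In the double null, 0 genes of these 4 lists and not *Upk3bl* were called against wild type, and in *Nrf2*-/- esophagi at P7 likewise 0.

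**Figure D4:**
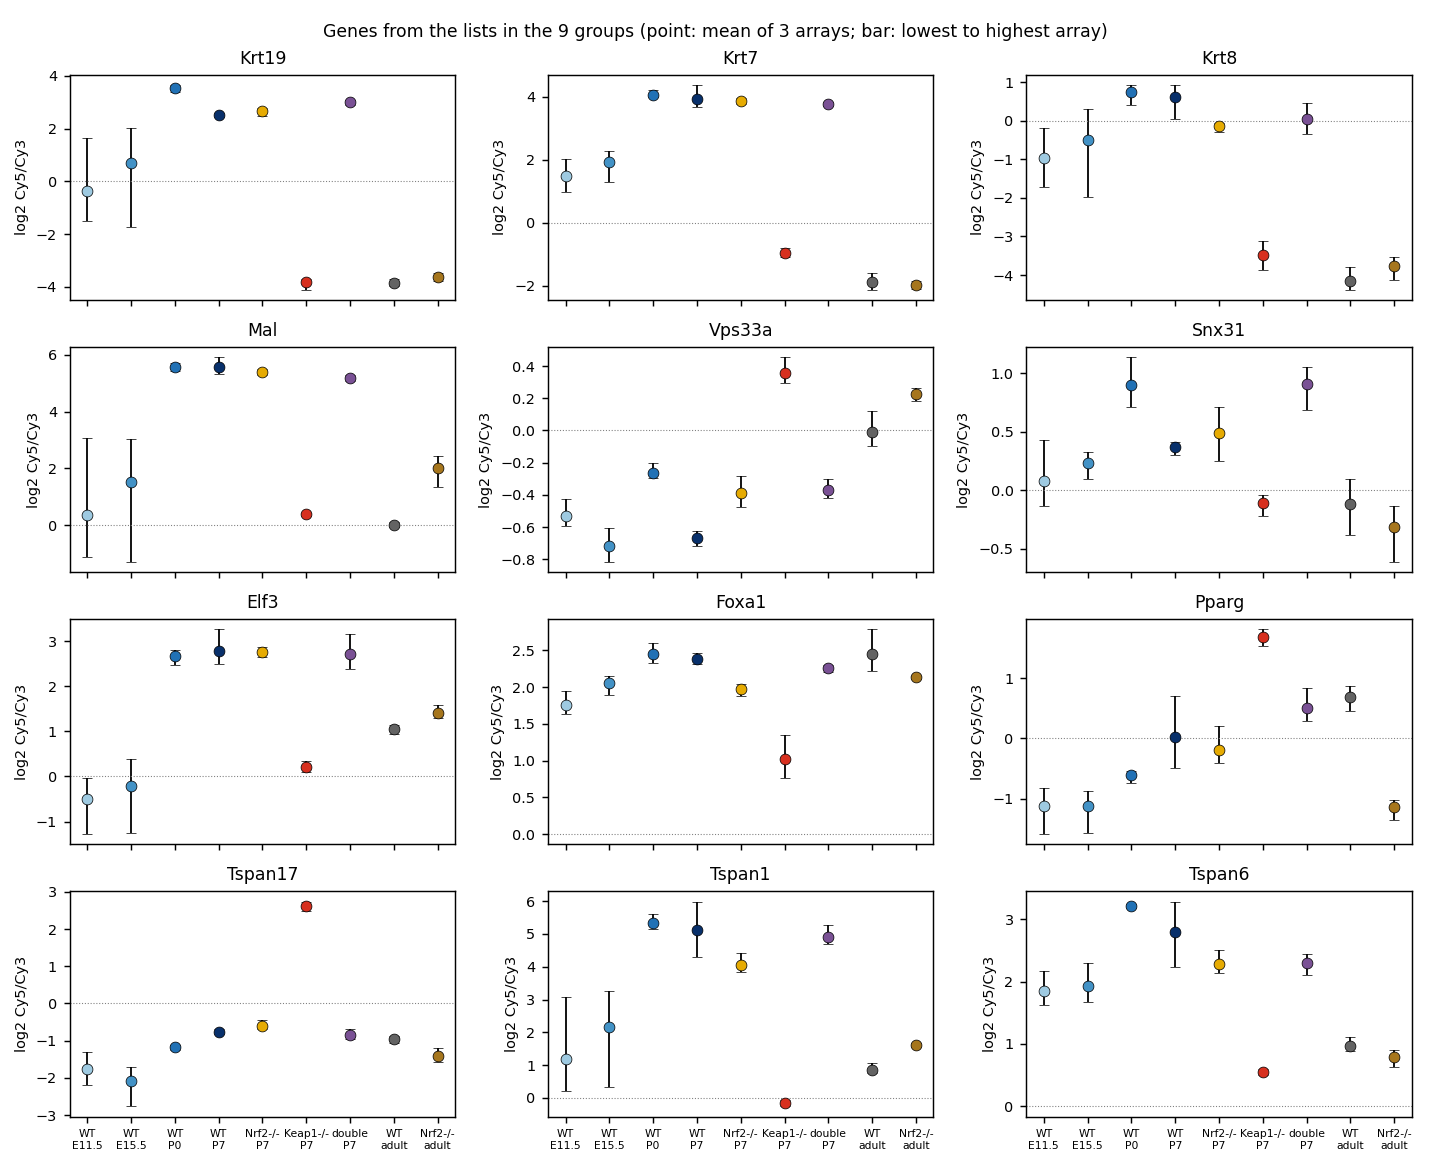
Levels (log2 Cy5/Cy3, vertical axis) in the 9 groups of the 3 genes with the lowest adjusted p in *Keap1*-/- esophagi from each list, in rows of keratins, vesicle traffic, transcription factors and tetraspanins, with the mean of 3 arrays as a point and the lowest to highest array as a bar. *Krt19* is near 3 in the double null and near -4 in *Keap1*-/- esophagi, and *Tspan17* is above 0 in *Keap1*-/- esophagi alone.

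Of the 8 genes for the genotype check and *Nrf2* targets, 6 were called higher and 1, *Nfe2l2* itself, lower in *Keap1*-/- esophagi. *Srxn1*, sulfiredoxin, rose by 4.37 ± 0.15 (adjusted p = 1.6e-08), *Gclm*, of the glutathione-making ligase, by 3.34 ± 0.17 (adjusted p = 2.8e-07), and *Gclc*, its catalytic subunit, by 6.04 ± 0.41 (adjusted p = 2.4e-06). *Keap1* itself was not called in *Keap1*-/- esophagi (-0.45 ± 0.22, adjusted p = 0.14), and where its probe lies relative to the deletion is not given in the sources used here.

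The genes most like each uroplakin were read as Pearson's r over the 27 arrays, which share groups, slides and the reference. Of 20906 genes, *St3gal4*, a sialyltransferase (r = 0.98), *Tnfrsf11b*, a decoy receptor of the TNF family (0.98), and *Enpp3*, an ectonucleotidase (0.97), were most like *Upk1b*. *St3gal4* went from -0.33 at E15.5 to 1.02 at P0 and was -0.80 in *Keap1*-/- esophagi and 0.68 in the double null (group means). Most like *Upk2* were *Muc4*, a membrane mucin (0.95), *Tmsb4x*, which binds actin monomers (0.94), and *Ildr1*, a protein of tricellular junctions (0.94). *Muc4* was 3.39 in wild type at P7 and 0.02 in *Keap1*-/- esophagi. Most like *Upk3a* were *Tafa1*, a secreted peptide (0.94), *Rbfox3*, a splicing factor (0.93), and *Ccno*, which is needed for multiciliated cells (0.92). By rank (Spearman) the correlations of these genes with *Upk3a* were 0.87, 0.69 and 0.79. *Ccno* read 2.42 on E11.5 replicate 3, 2.59 and 2.40 on E15.5 replicates 2 and 3, and between -2.51 and -0.60 on the other 24 arrays. Most like *Upk3b* were *Slc45a3*, a sugar transporter, *Hal*, histidine ammonia-lyase, and *Ppbp*, a chemokine (each 0.91). *Ppbp* went from 1.09 at E15.5 to 7.83 at P0 and was -0.25 in *Keap1*-/- esophagi. For *Upk1a* no r passed 0.64. Among the uroplakins, r was 0.88 for *Upk1b* with *Upk2*, 0.87 for *Upk1b* with *Upk3b*, 0.29 for *Upk1b* with *Upk3a* and 0.00 for *Upk3a* with *Upk3b*.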

How the data were processed

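Expression was measured on 27 two-colour Agilent arrays, 3 in each of 9 groups. The scanner files deposited by the authors give, for both dyes, a mean intensity and a local background per spot, and their headers name Agilent Feature Extraction 10.5.1.1 or 10.7.3.1, while the submitters' processing notes name version 9.1. The log10 ratios deposited by the authors equalled those of that software within 0.005. Mean intensities were corrected by normexp (offset 50). A local background over 5 times the array median was set to that median and the spot left out, which touched no uroplakin spot. Loess was applied within arrays. Outlier-marked spots, 13 of 162 uroplakin spots, were kept. Spots and then probes were averaged on the log2 scale. RefSeq accessions tied 27434 of the 41174 probes (66.6%) to current genes, and other probes kept the name in the file. A gene entered a fit where 3 or more of its arrays had a probe well above background in the sample channel, and was tested with limma 3.58.1 in R 4.3.3 and Benjamini-Hochberg adjustment over all tested genes, a step tested on simulated data. Fits held the 12 wild-type arrays of E11.5 to P7, the 12 arrays of P7, P7 with adult wild type (6), the adult genotypes (6), or *Nrf2*-/- and wild type of both ages (12). The uroplakins, the gene lists and the markers were chosen with earlier results of these data known. Up to 3 genes with the lowest adjusted p were named from each list in a comparison described for it. *Krt13*, *Krt5*, *Klf5*, *Foxj1*, *Msln*, *Bnc1*, the stomach markers and the adult values of *Mal* and *Pparg* were singled out after their values were seen. For each uroplakin the 3 genes with the highest r were named. Deviations of same-numbered arrays from their group means correlated from -0.45 to 0.64 over all genes. For all 3 numbers they were over 0.1 between P0 and P7, E11.5 and P7, and *Keap1*-/- and the double null. The labels do not pair the animals, so the reported fits held no replicate block, which was run as an alternative. Alternatives were other signals, background, normalization, filters, blocks and arrays left out. Cy5 alone, slide as a random block the interaction of *Keap1* and *Nrf2*, and wild-type P7 replicates 1 and 2 left out together, for their stomach markers, were added after the data were seen. Every p-value rests on the spread between arrays of individual animals, 3 a group, and the number of arrays limits the precision. In the wild-type time course all comparisons share a spread that holds the embryonic arrays against their labels. Its standard errors can therefore exceed the spread between animals of an age. For *Upk3a* from P0 to P7 the SE was 1.24 with those arrays and 0.25 without them.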

Additional observations from a re-analysis of the deposited data

Results flagged for a closer look

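The difference between the effects of *Keap1* loss with and without *Nrf2* passed the threshold of the limma fit for 3 uroplakins. The genes were chosen on these ratios and the comparison was added after the data were seen, so the values are a description. With *Nrf2*, the level went from wild type to *Keap1*-/-, and without it from *Nrf2*-/- to the double null. The difference between these effects on the log2 scale was -5.73 ± 0.40 for *Upk1b*, -2.41 ± 0.27 for *Upk2* and -2.12 ± 0.21 for *Upk3a* (SE of the limma fit). For *Upk3b* it was -0.93 ± 0.55 and was not called. The *Keap1*-/- arrays were alone in their scan, and the part of the scan cannot be told apart. In *Keap1*-/- esophagi the *Upk3a* probe was well above background on 0 of 3 arrays, and the *Upk2* probe on 1 of 3 in Cy5 and 0 of 3 in Cy3. For *Upk2* the difference was -5.00 on the Cy5 channel alone, -1.25 ± 0.23 with median centring, and -0.84 ± 0.54, no longer called, with Feature Extraction's signals or the deposited ratios.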

How the results depend on the processing

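No uroplakin difference called with the settings reported changed sign under the alternatives run. With slide as a block, the differences from E11.5 to E15.5, not called before, turned to -0.64 for *Upk1b*, -0.59 for *Upk2* and -1.57 for *Upk3a*. With single arrays left out, all 630 differences moved by less than 1 SD between replicates. Leaving 1 of 3 arrays out moves a group mean by less than the SD of that group, so nothing is read from this. Under the other alternatives, 778 differences moved by less than 1 SD and 131 by more. Counts of uroplakins called moved as follows. From E11.5 to P7 the count of 3 became 1 with Feature Extraction's processed signals, with the deposited ratios, with slide as a random block and with Cy5 alone, and lay between 1 and 3 with single arrays left out. From P0 to P7 it went from 0 to 1 with median centring, and, without the embryonic arrays nearer the other label, to 1 there and to 3 from E11.5 to E15.5. In *Nrf2*-/- and double-null esophagi at P7 the count of 1 became 0 with the processed signals, the deposited ratios and all 27 arrays in 1 fit, and lay between 0 and 1 with single arrays left out. With each spot's own local background, 2 in place of 4 were called from P7 to the adult, 3 in place of 0 between adult genotypes and 2 in place of 0 for the *Nrf2* effect between ages. With single arrays left out the count lay between 3 and 4 for both *Keap1*-/- comparisons and from P7 to the adult, and between 2 and 3 from E15.5 to P0. The causes were not tested. With the replicate block the counts of uroplakins called were unchanged in all 12 comparisons, for example 4 in *Keap1*-/- esophagi, whether or not the numbers paired the arrays. The *Keap1*-/- scan and slide could not be fitted as a block against wild type. *Upk1b* between adult genotypes was tested only without the filter on dim probes (-0.41 ± 0.29, not called). Median centring moved array medians by -0.32 to -0.09.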
